A study of Mus musculus with 4 samples.

Results

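The genes described here drive or mark the mitotic cell cycle: cyclins, cyclin-dependent kinases and their inhibitors, replication factors, enzymes of deoxynucleotide supply, and the mitotic machinery. They were taken by name from a list of 39 genes. Of these, 38 had a value above 0 in at least 1 library, out of 32868 gene names in the deposited files, and Cdc6, the loader of the replicative helicase, was listed at 0 in all 4 libraries. The RNA came from tibialis anterior, a fast-twitch shin muscle, of C57BL/6 mice at postnatal day 21. The Het group (2 libraries) had the genotype Nf1flox/+/Myf5+, and the Nf1-KO group (2 libraries) Nf1flox/flox/Myf5+. Nf1 encodes neurofibromin, which switches off Ras, and the study addresses whether muscle itself needs Nf1 for its growth and metabolism. Myf5+ is read here as the Cre driver of the Myf5 locus, active in muscle precursors and hence in the fibres they form. The controls therefore carried the driver and 1 floxed allele too and were not wild type, and cells outside that lineage kept their Nf1 alleles in both groups. The labels do not say whether the libraries of a group came from separate animals, so the p-values below measure only the spread between these libraries, which may be technical.

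Cells enter the cycle when D-type cyclins with Cdk4 or Cdk6, and then E-type cyclins with Cdk2, phosphorylate the retinoblastoma protein and release E2F factors, which switch on replication genes. The inhibitors of the INK4 family block Cdk4 and Cdk6, while those of the CIP/KIP family bind a wider range of cyclin-kinase pairs. Later, the kinase Cdk1 with A- and B-type cyclins drives mitosis, for which the Aurora and Polo-like kinases build and control the spindle. Myofibre nuclei have left the cycle for good. In growing muscle, dividing nuclei belong to satellite cells, the muscle stem cells, and to connective tissue, vascular and immune cells.

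Many late cell cycle promoters carry CCAAT boxes, bound by the factor NF-Y, near the start of transcription. The promoters of 4 members are shown to set 2 genes that changed between the groups, Aurka and Cdkn1b, beside 2 that were close to 0 in every library, Ccnb2 and Top2a. Each sequence is the 100 bases before the RefSeq start (build GRCm38.p6), read in the direction of the gene, from windows that hold no annotated exon. Capitals mark CCAAT and TTTGAA, the latter a core of the cell cycle homology region, on either strand (ATTGG and TTCAAA on the other strand). TTTNNCGC, an E2F motif, was also searched on both strands and is in none of the 4 windows.
Aurka, chr2:172370571-172370670, minus strand: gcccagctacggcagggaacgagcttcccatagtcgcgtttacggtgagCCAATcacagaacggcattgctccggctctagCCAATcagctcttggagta
Ccnb2, chr9:70421555-70421654, minus strand: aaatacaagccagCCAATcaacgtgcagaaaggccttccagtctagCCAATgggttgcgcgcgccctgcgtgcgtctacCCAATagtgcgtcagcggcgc
Top2a, chr11:99024190-99024289, minus strand: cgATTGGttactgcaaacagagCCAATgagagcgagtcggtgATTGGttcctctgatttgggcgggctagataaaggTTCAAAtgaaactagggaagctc
Cdkn1b, chr6:134920301-134920400, plus strand: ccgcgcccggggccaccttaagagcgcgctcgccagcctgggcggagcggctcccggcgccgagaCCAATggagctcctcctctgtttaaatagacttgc

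RefSeq's table held a promoter for 31 of the 39 genes, all but Aurkb, Ccna2, Ccnd1, Ccnd2, Ccne2, Cdkn1c, Mcm4 and Rb1. Of these 31 windows, 17 (54.8%) held CCAAT on either strand, against 19.6% of all 27025 promoter windows of that length. TTTGAA was in 5 (16.1%) against 5.91%, and TTTNNCGC in 2 (6.45%) against 1.86%. Aurka and Ccnb2 thus share CCAAT boxes close to the start and differ in level, as the values below show. A match of letters is a description and shows no binding.

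Values are RPKM, reads per kilobase of gene scaled to a fixed library size, so levels can be compared between genes. Replicates lay close together, with a median coefficient of variation of 2.03% (Het) and 1.91% (Nf1-KO) over 4826 genes that averaged at least 5 RPKM. Nf1 itself held 1.09 and 1.01 RPKM in Het against 0.89 and 0.85 RPKM in Nf1-KO. Its log2 fold change was -0.18, with a limma adjusted p of 0.041. Without a library that adjusted p was 0.14 (Het replicate 1), 0.061 (Het replicate 2), 0.11 (Nf1-KO replicate 1) and 0.16 (Nf1-KO replicate 2). Myofibre genes dominated each library, the summed level of 7 myofibre markers being 50283 and 50378 RPKM in Het and 38479 and 38069 RPKM in Nf1-KO. All 7 were tested, with 6 called lower and 1 higher. The one called higher was Myh1, with a mean of 2398 RPKM in Het and 3678 RPKM in Nf1-KO. The decreases were unequal, with a ratio of Nf1-KO to Het means of 0.95 for Ckm and 0.32 for Pvalb. Markers of other cell types were low beside the myofibre markers and mostly higher in Nf1-KO. Over all 10690 tested genes, limma called 50.3% at an adjusted p under 0.05, 24.9% higher and 25.4% lower. The counts of called markers stand beside that share, and no test over the markers of a cell type was run. Sums are of values as deposited, while calls use values divided by scaling factors (0.968 and 0.967 in Het, 1.03 and 1.03 in Nf1-KO). The sum of 8 satellite cell and myoblast markers was 19.0 and 18.9 RPKM in Het and 26.5 and 24.9 RPKM in Nf1-KO. Of the 6 tested, 3 were called higher and none lower. Those called were Vcam1, Chodl and Myog, which was 0.92 and 1.23 RPKM in Het and 5.19 and 4.53 RPKM in Nf1-KO. Pax7, Myod1 and Cdh15 were not called (limma adjusted p 0.093, 0.092 and 0.70), and Myf5 and Calcr were not tested. The sum of 10 immune cell markers was 27.7 and 27.3 RPKM against 61.9 and 60.7 RPKM, with 5 of 6 tested called higher, none lower and Adgre1 listed at 0. The sum of 8 fibroblast markers was 122 and 118 RPKM against 167 and 169 RPKM, with 6 called higher and 1 lower of 8 tested. Endothelial markers summed to 85.1 and 85.8 RPKM against 96.6 and 95.1 RPKM (4 higher and 1 lower of 7), and Schwann cell markers to 15.6 and 16.2 RPKM against 35.0 and 33.7 RPKM (5 higher and none lower of 6). Of 7 erythroid markers 1 could be tested and it was not called, and Hbb-b1 and Hbb-bs were listed at 0. The part of these shifts in the results below was not tested, and in bulk muscle fewer cells of a type and less RNA per cell cannot be told apart.

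The cell cycle genes fell into a measurable set and a set near 0. In all, 20 of the 38 reached 0.5 RPKM in at least 2 libraries and were tested, with values from 0.25 to 12.8 RPKM. The other 18 lay between 0 and 0.36 RPKM in every library, with a median value of 0.09 RPKM, and include 12 of the 13 mitosis genes. The median level over the 38 genes was 0.489 RPKM, against 4.15 RPKM over all 10690 tested genes. The plot of each library's value shows the members by role.

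**Figure D1:**
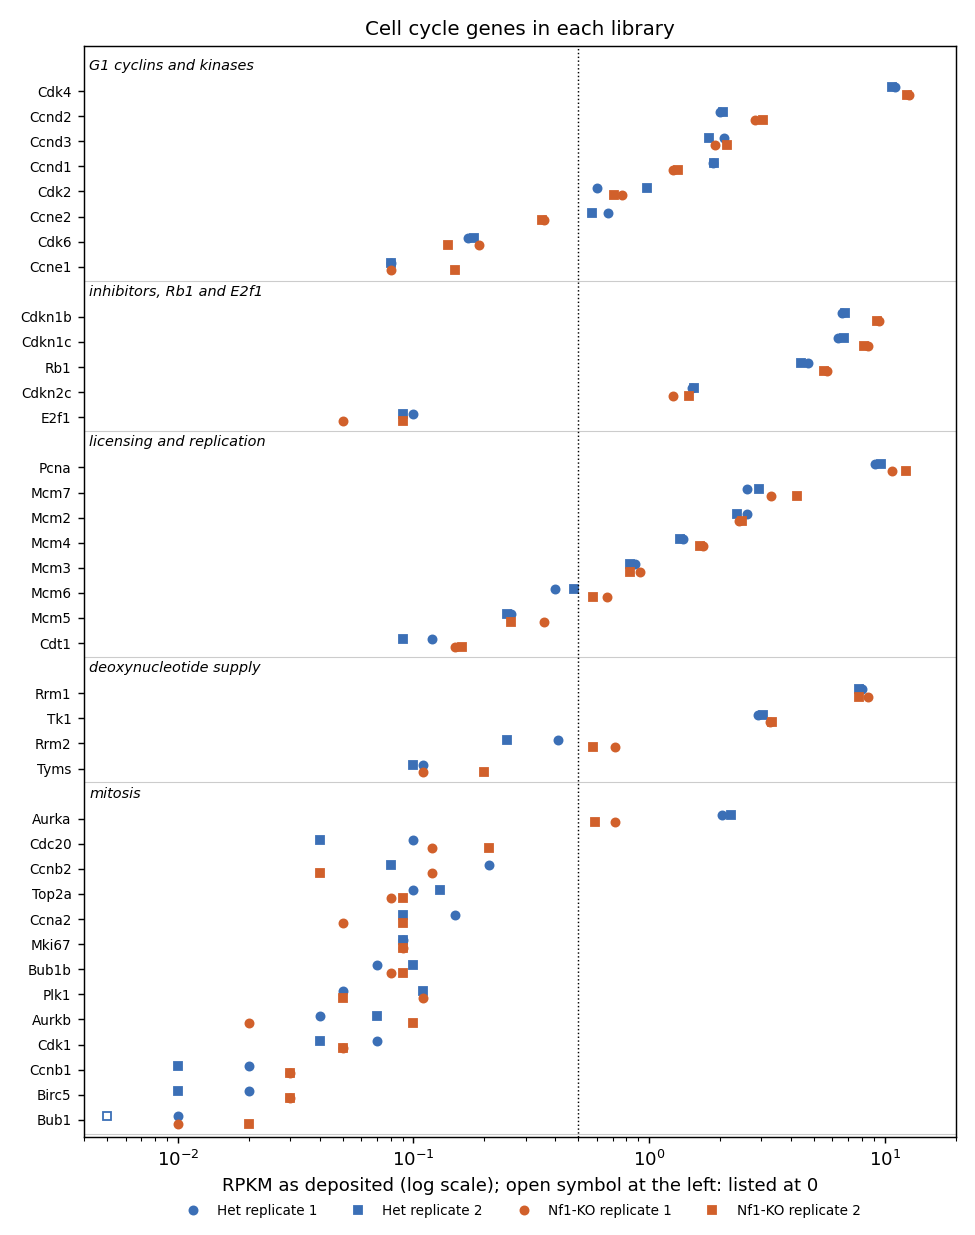
RPKM of the 38 cell cycle genes in each library, on a log axis, grouped by role and ordered by mean. Blue is Het, orange Nf1-KO, circles replicate 1 and squares replicate 2, the dotted line marks 0.5 RPKM, and the open square is Bub1 in Het replicate 2, listed at 0. Aurka is the only mitosis gene to the right of the line.

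Of the 20 tested genes, 6 were higher in Nf1-KO (Ccnd2, Cdk4, Cdkn1b, Cdkn1c, Rb1 and Rrm2) and 3 lower (Aurka, Ccnd1 and Ccne2), by limma with an adjusted p under 0.05. That is 45.0% of those tested, while 50.3% of all 10690 genes were called, 24.9% higher and 25.4% lower, so the share of cell cycle genes called is close to the background and is no result about them. The median log2 fold change was 0.07 over the 20 genes and 0.00 over all tested genes, and the median absolute value 0.16 in both. In scaled values the groups did not overlap in 15 of the 20 genes (75.0%), where the share over all tested genes was 76.3%. These counts include Ccne2, which passed the filter through the Het libraries alone. They also include Rrm2 and Mcm6, which passed it through the Nf1-KO libraries alone, so the filter itself favoured a difference in all of these. The authors' deposited table, whose columns have the layout of DESeq2 output, listed 34 of the 38 genes and called 5 of them (14.7%), where it called 31.6% of all its genes. Those 5 were Aurka, Ccnd1, Ccne2, Ccnd2 and Cdkn1b, and each was also called here with the same sign. They are also the called genes that kept their call and direction in every one of the 11 alternative fits that tested them. The fit that asked for at least 1 RPKM in every library did not test Aurka and Ccne2. Cdk4, Cdkn1c, Rb1 and Rrm2 were called by limma alone, with adjusted p of 0.53, 0.084, 0.084 and 0.099 in the authors' deposited table.

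**Figure D2:**
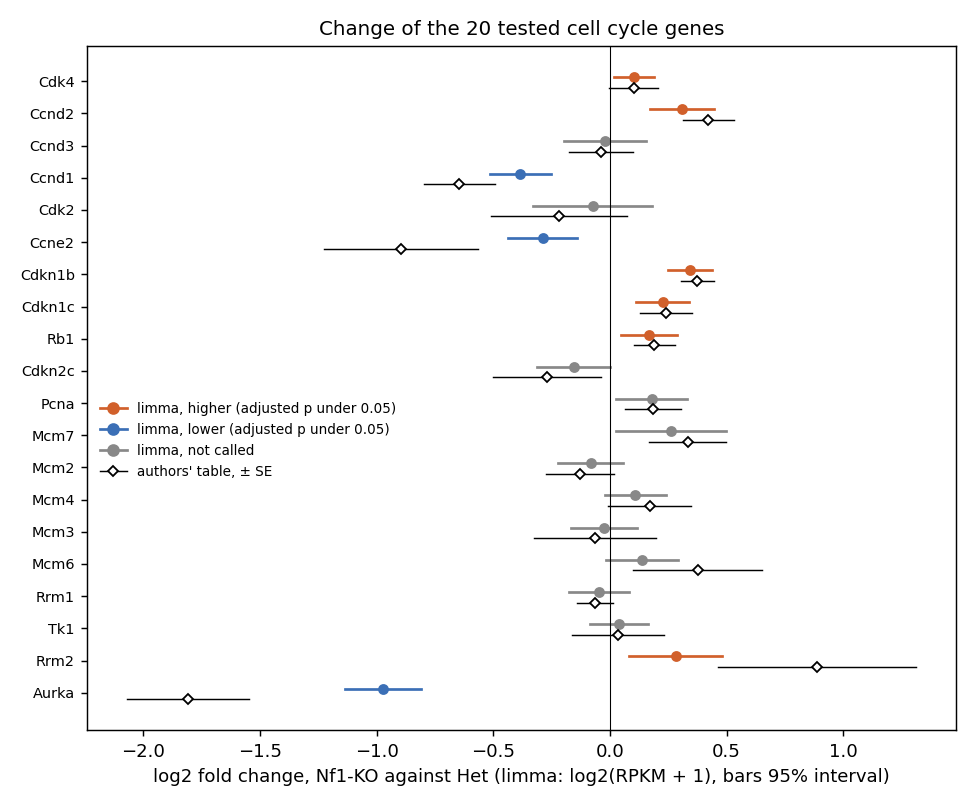
Log2 fold change of Nf1-KO against Het for the 20 tested genes, by role. Filled circles with 95% intervals are from limma on log2(RPKM + 1), and open diamonds with 1 standard error are from the authors' deposited table, which has no such pseudocount and so gives larger changes for low genes. Aurka lies farthest from 0 in both. The intervals are not adjusted for the number of genes, so those of Pcna and Mcm7 exclude 0 without a call.

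Among the D-type cyclins, which start G1 progression, Ccnd1 fell and Ccnd2 rose. Ccnd1, the D-type cyclin best known as a target of Ras signalling (chromosome 7, 144929931 to 144939925, GRCm38), was 1.87 and 1.89 RPKM in Het and 1.26 and 1.33 RPKM in Nf1-KO. Both Nf1-KO values lay below both Het values, and Ccnd1 fell with a log2 fold change of -0.39 (SE 0.054, limma adjusted p 0.0016). Ccnd2 (chromosome 6, 127125162 to 127152193) was 2 and 2.06 RPKM in Het and 2.81 and 3.06 RPKM in Nf1-KO. It rose with a log2 fold change of 0.31 (SE 0.056, limma adjusted p 0.0047), and again the groups did not overlap. Ccnd3, the D-type cyclin that is kept in differentiated muscle cells, was 2.08 and 1.79 RPKM in Het and 1.90 and 2.14 RPKM in Nf1-KO. Its groups overlapped, with a log2 fold change of -0.02, a 95% interval from -0.20 to 0.15 and a limma adjusted p of 0.83. In Het both Ccnd1 and Ccnd2 lay within the range of the Ccnd3 values, so the 3 genes have no clear order there, whereas in Nf1-KO both values of Ccnd2 lay above, and both of Ccnd1 below, those of Ccnd3.

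The ratio of Ccnd2 to Ccnd1 within a library, which no scaling between libraries can alter, was 1.07 and 1.09 in Het and 2.23 and 2.30 in Nf1-KO. Ccnd1 made up 32.2% ± 1.06 (SD, n = 2) of the summed D-type cyclin level in Het and 20.7% ± 0.522 (SD, n = 2) in Nf1-KO. Ccnd2 made up 34.8% ± 1.61 (SD, n = 2) and 47.0% ± 0.147 (SD, n = 2). The sum itself was 5.95 and 5.74 RPKM in Het and 5.97 and 6.53 RPKM in Nf1-KO, values that lay close together beside the shift in its parts. Exons of Ccnd1 overlap 1100 bases of the neighbour Lto1, listed in the files as Oraov1, on the opposite strand. Oraov1 was 1.66 and 1.5 RPKM in Het and 1.40 and 1.30 RPKM in Nf1-KO (log2 fold change -0.19, limma adjusted p 0.041). No source used here says if reads were counted by strand, so those of overlapping genes on opposite strands cannot be told apart. The same holds for Ccnd2 with 9330179D12Rik and Gm43126, Ccnd3 with Bysl, Cdkn1c with Gm44732, and Rb1 with Lpar6 and Rcbtb2. Lpar6 and Rcbtb2 were not called (limma adjusted p 0.34 and 0.44), and Bysl fell (log2 fold change -0.21, limma adjusted p 0.012).

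**Figure D3:**
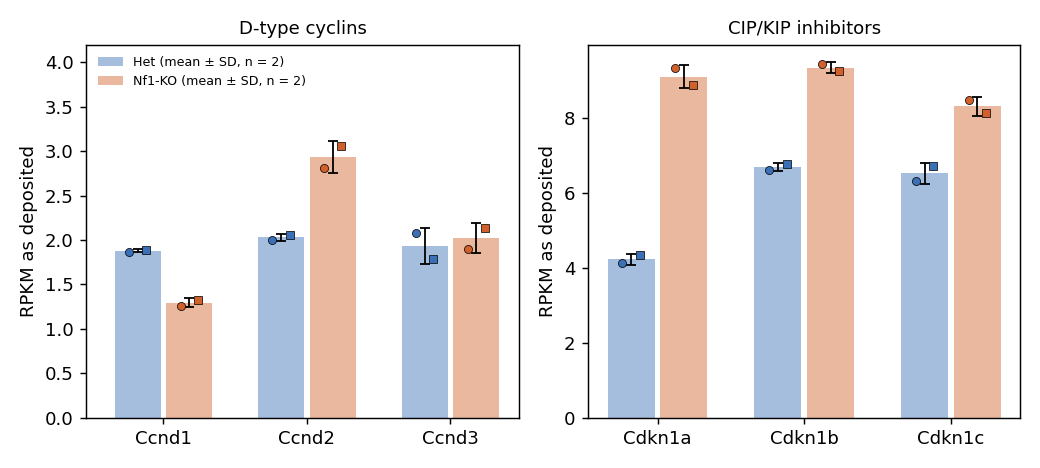
RPKM of the 3 D-type cyclins (left) and the 3 CIP/KIP inhibitors (right). Bars are means and error bars SD of 2 libraries, blue for Het and orange for Nf1-KO, with each library as a point. Ccnd1 is lower and Ccnd2 higher in Nf1-KO, and Cdkn1a, Cdkn1b and Cdkn1c are all higher.

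The partner kinases of the D-type cyclins were unequal in level. Cdk4 was the most abundant gene of all 38, with 11.1 and 10.8 RPKM in Het and 12.8 and 12.5 RPKM in Nf1-KO, while Cdk6 held between 0.14 and 0.19 RPKM. Cdk4 was called higher by a narrow margin (log2 fold change 0.10, limma adjusted p 0.049). That call was lost without any 1 of the 4 libraries, with adjusted p of 0.088 (without Het replicate 1), 0.17 (Het replicate 2), 0.20 (Nf1-KO replicate 1) and 0.096 (Nf1-KO replicate 2). Cdk4 also shares 641 exonic bases with Tspan31 on the opposite strand. The values of Tspan31 were almost those of Cdk4 (10.9 and 10.9 RPKM in Het, 13.0 and 12.5 RPKM in Nf1-KO), so how many of the reads behind Cdk4 are its own cannot be told from these files.

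Of the E-type cyclins, which act with Cdk2 at the start of S phase, Ccne2 fell and Ccne1 was too low to test. Ccne2 (chromosome 4, 11191351 to 11204779) was 0.67 and 0.57 RPKM in Het and 0.36 and 0.35 RPKM in Nf1-KO, so the groups did not overlap. The log2 fold change was -0.29 (SE 0.061, limma adjusted p 0.0090) with a pseudocount of 1, which understates changes of low genes, and -0.74 with a pseudocount of 0.1. The ratio of means was 1.75 in favour of Het. Ccne2 passed the filter through the Het libraries alone. Its neighbour Ints8, with 609 overlapping exonic bases, was 1.74 and 1.88 RPKM in Het and 1.69 and 1.94 RPKM in Nf1-KO and was not called (limma adjusted p 0.49). Ccne1 was 0.08 RPKM in both Het libraries and 0.08 and 0.15 RPKM in Nf1-KO. Cdk2 was 0.60 and 0.98 RPKM in Het and 0.77 and 0.71 RPKM in Nf1-KO, a spread within Het wider than any difference between the groups (log2 fold change -0.07, 95% interval -0.33 to 0.18, limma adjusted p 0.59). Without Het replicate 1 it was called lower (-0.23, limma adjusted p 0.049).

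Of the 5 genes that brake the cycle or are braked, Cdkn1b, Cdkn1c and Rb1 rose, Cdkn2c was tested and not called, and E2f1 was too low to test. Cdkn1b, which encodes the CIP/KIP inhibitor p27 (chromosome 6, 134920401 to 134925513), was 6.61 and 6.77 RPKM in Het and 9.45 and 9.25 RPKM in Nf1-KO. Its log2 fold change of 0.34 (SE 0.039) had a limma adjusted p of 6.1e-04, and no exon of another annotated gene overlaps it. Cdkn1c, which encodes the imprinted inhibitor p57, was 6.32 and 6.73 RPKM in Het and 8.5 and 8.14 RPKM in Nf1-KO (log2 fold change 0.23, SE 0.047, limma adjusted p 0.0084). Without Nf1-KO replicate 1 its adjusted p was 0.057.

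Rb1, the retinoblastoma gene, was 4.74 and 4.42 RPKM in Het and 5.69 and 5.55 RPKM in Nf1-KO. The groups did not overlap (log2 fold change 0.17, SE 0.049, limma adjusted p 0.029). The call of Rb1 held without Het replicate 1 (limma adjusted p 0.034) and was lost without Het replicate 2 (0.12), Nf1-KO replicate 1 (0.14) or Nf1-KO replicate 2 (0.084). Cdkn2c, the INK4 inhibitor p18, lay in the other direction at 1.52 and 1.55 RPKM in Het and 1.26 and 1.48 RPKM in Nf1-KO (log2 fold change -0.15, limma adjusted p 0.091). E2f1, the activator that Rb1 restrains, held 0.05 to 0.10 RPKM in all libraries.

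The third CIP/KIP gene, Cdkn1a, which encodes p21, is no member of the list but completes the family. It was 4.13 and 4.34 RPKM in Het and 9.33 and 8.89 RPKM in Nf1-KO, and rose with a log2 fold change of 0.87 (SE 0.047, limma adjusted p 2.6e-05). The 3 CIP/KIP genes together held 17.1 and 17.8 RPKM in Het and 27.3 and 26.3 RPKM in Nf1-KO. Without Cdkn1a the sum of Cdkn1b and Cdkn1c was 12.9 and 13.5 RPKM against 18.0 and 17.4 RPKM. The sum does not separate these genes, but each had both Nf1-KO values above both Het values, as given above.

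None of the licensing and replication genes was called. Of the 9, 6 were tested, with 2 at an unadjusted limma p under 0.05 (Mcm7 and Pcna). The authors' deposited table called 0 of the 8 it listed, with 1 at an unadjusted p under 0.05. Over all genes, limma called 50.3% of those tested and the authors' deposited table called 31.6%. No test over the group was run. The MCM genes encode the 6 subunits of the replicative helicase, which are loaded onto origins as a ring with 1 copy of each. Their RNA levels were far from equal. Mcm7 was 2.61 and 2.93 RPKM in Het and 3.31 and 4.23 RPKM in Nf1-KO, and Mcm2 2.60 and 2.36 against 2.4 and 2.48 RPKM. Mcm4 was 1.39 and 1.36 against 1.69 and 1.64 RPKM, and Mcm3 0.87 and 0.83 against 0.92 and 0.83 RPKM. Mcm6 held 0.40 and 0.48 against 0.66 and 0.58 RPKM, passing the filter through the Nf1-KO libraries alone, and Mcm5 0.26 and 0.25 against 0.36 and 0.26 RPKM. Within a library, Mcm7 was 9.19 to 16.3 times as high as Mcm5, and the same order from Mcm4 through Mcm3 and Mcm6 to Mcm5 held in all 4 libraries.

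Among the tested genes of the group, Mcm7 had the largest log2 fold change, 0.26 (95% interval 0.03 to 0.50, limma adjusted p 0.065). Its Nf1-KO libraries lay farther apart than its Het libraries. Without Nf1-KO replicate 1 it was called higher (0.40, limma adjusted p 0.016). Annotated exons of Mcm7 also overlap those of Ap4m1 and Cops6 on the opposite strand and contain Mir25 and Mir93. Pcna, the sliding clamp of DNA polymerase and the most abundant replication gene, was 9.12 and 9.67 RPKM in Het and 10.8 and 12.3 RPKM in Nf1-KO. Its groups did not overlap, but its log2 fold change of 0.18 (95% interval 0.03 to 0.33) had a limma adjusted p of 0.056. Without Nf1-KO replicate 1 it was called (0.26, limma adjusted p 0.017). For Mcm2, Mcm3, Mcm4 and Mcm6 the log2 fold changes were -0.08, -0.02, 0.11 and 0.14, with limma adjusted p of 0.27, 0.75, 0.14 and 0.12. Cdt1, which loads the helicase with Cdc6, held 0.12 and 0.09 RPKM in Het and 0.15 and 0.16 RPKM in Nf1-KO.

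**Figure D4:**
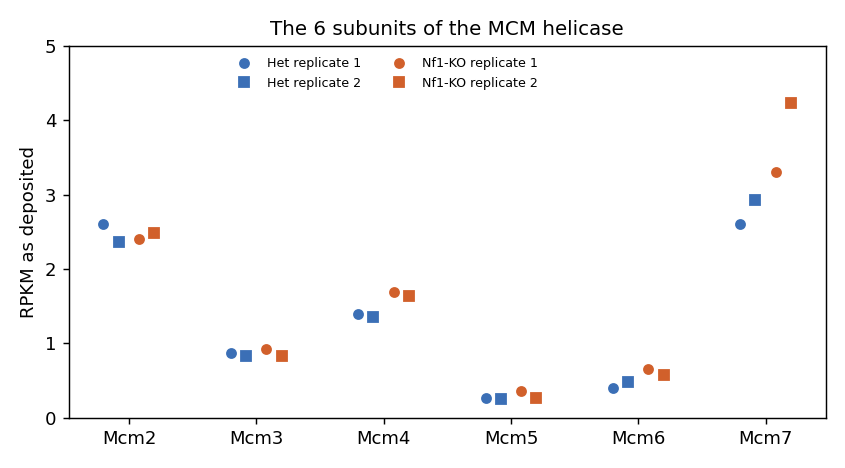
RPKM of Mcm2 to Mcm7 in each library, blue for Het and orange for Nf1-KO, circles for replicate 1 and squares for replicate 2. Mcm7 and Mcm2 are highest and Mcm5 lowest in every library, and only Mcm7 shows a wide gap between the Nf1-KO replicates, 3.31 and 4.23 RPKM.

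The genes of deoxynucleotide supply also differed widely in level. Rrm1, the large subunit of ribonucleotide reductase, was 8.05 and 7.78 RPKM in Het and 8.54 and 7.77 RPKM in Nf1-KO, while Rrm2, the small subunit made in S phase, was 0.41 and 0.25 RPKM in Het and 0.72 and 0.58 RPKM in Nf1-KO. Rrm1 was therefore 11.9 to 31.1 times as high as Rrm2 within a library. Rrm1 did not pass the test (log2 fold change -0.05, 95% interval -0.17 to 0.08). Rrm2 rose (log2 fold change 0.28, SE 0.082, limma adjusted p 0.030), or 0.74 with a pseudocount of 0.1, with a ratio of means of 1.97. It passed the filter through the Nf1-KO libraries alone and its call was lost without Het replicate 2 (limma adjusted p 0.11) or Nf1-KO replicate 1 (0.14). Rrm2b, the small subunit that resting cells use, was looked at after the values of Rrm1 and Rrm2 were seen. It was 8.80 and 8.89 RPKM in Het and 7.81 and 7.71 RPKM in Nf1-KO, a level like that of Rrm1, and fell (log2 fold change -0.25, limma adjusted p 0.0019). Tk1, thymidine kinase, was 2.90 and 3.06 RPKM in Het and 3.26 and 3.33 RPKM in Nf1-KO and was not called (log2 fold change 0.04, limma adjusted p 0.56). Tyms, thymidylate synthase, held 0.11 and 0.10 RPKM in Het and 0.11 and 0.20 RPKM in Nf1-KO.

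Among the 13 mitosis genes, 12 were near 0 in both groups. Mki67, whose protein Ki-67 is the usual stain for dividing cells, was listed at 0.09 RPKM in all 4 libraries. Top2a, the topoisomerase that untangles chromosomes, was 0.10 and 0.13 RPKM in Het and 0.08 and 0.09 RPKM in Nf1-KO. Cdk1 held 0.04 to 0.07 RPKM, and its cyclins Ccna2, Ccnb1 and Ccnb2 held 0.05 to 0.15, 0.01 to 0.03 and 0.04 to 0.21 RPKM. The spindle checkpoint genes Bub1 and Bub1b, the checkpoint's target Cdc20, the kinases Plk1 and Aurkb and the Aurkb partner Birc5 lay between 0 and 0.21 RPKM. Summed over these 12 genes, the level was 0.93 and 0.77 RPKM in Het and 0.79 and 0.89 RPKM in Nf1-KO, so the groups overlapped.

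The depth behind these values is small. The authors' deposited table gave mean normalized counts of 7.32 to 43.9 reads per library for the 8 of the 12 genes it listed. For Cdk1, the lowest of them, the log2 fold change in the authors' deposited table was -0.12 with a standard error of 1.04, so a change of several-fold was not detectable at this depth. When the filter was dropped, limma called 0 of the 18 low cell cycle genes, with 0 at an unadjusted p under 0.05, where 23.9% of all 18959 genes were called. The authors' deposited table called 0 of the 14 it listed, with 0 at an unadjusted p under 0.05, where it called 31.6% of all its genes.

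Aurka stood apart from the other mitosis genes. It encodes Aurora kinase A, which matures centrosomes and builds the spindle (chromosome 2, 172356190 to 172370535). Its level was 2.04 and 2.23 RPKM in Het and 0.72 and 0.59 RPKM in Nf1-KO. The groups lay far apart beside their spread, and the ratio of means was 3.26 in favour of Het. The log2 fold change was -0.97 (SE 0.067, limma adjusted p 7.4e-05), or -1.66 with a pseudocount of 0.1, and the authors' deposited table gave -1.81 with an adjusted p of 5.4e-11 from a mean normalized count of 133. Aurka made up 68.7% and 74.3% of the summed level of the 13 mitosis genes in Het and 47.7% and 39.9% in Nf1-KO. Aurkb, its relative in the chromosomal passenger complex, held 0.04 and 0.07 RPKM against 0.02 and 0.10 RPKM, below Aurka in every library and too low to test. The ratio of Aurka to Aurkb was 51 and 31.9 in Het against 36 and 5.9 in Nf1-KO, and the groups overlapped. The promoter of Aurka shown above faces Cstf1, which starts on the opposite strand 145 bases beyond the end of the annotated Aurka gene. Cstf1 was 8.51 and 8.84 RPKM in Het and 8.36 and 9.26 RPKM in Nf1-KO and was not called (log2 fold change -0.07, limma adjusted p 0.34), and no exon of another annotated gene overlaps those of Aurka.

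The rest of the cell cycle machinery was read from a further list of cell cycle genes. In it, 2 were listed at 0 in all libraries, 47 were under the filter and 52 were tested, and limma called 15 of them higher in Nf1-KO and 9 lower. That is 46.2%, again near the 50.3% of all tested genes, and the median log2 fold change was 0.00. With values as deposited and not scaled, 20 were higher and 6 lower, where 3760 of all tested genes were higher and 1883 lower. The largest increases were those of Cdkn1a, given above, of Hmgb2, a chromatin protein of dividing cells (0.94 ± 0.028 to 2.30 ± 0.18 RPKM, SD, n = 2; log2 fold change 0.71, limma adjusted p 2.0e-04), and of Stmn1, Tfdp2, Rpa1 and Ccng2 (0.37, 0.36, 0.34 and 0.34). The largest decreases were those of E2f3 (3.17 ± 0.099 to 2.02 ± 0.042 RPKM, SD, n = 2; log2 fold change -0.53, limma adjusted p 3.2e-04), Cdkn2b, E2f4, Tfdp1, Pola2 and Cdc25a (-0.47, -0.39, -0.38, -0.28 and -0.26). Cdkn2b, an INK4 inhibitor, was 0.84 and 0.95 RPKM in Het and 0.37 and 0.44 RPKM in Nf1-KO and passed the filter through the Het libraries alone. The E2F partners thus went in opposite directions: Tfdp1 was 12.2 and 11.6 RPKM in Het and 9.25 and 9.89 RPKM in Nf1-KO, and Tfdp2 was 7.59 and 7.88 against 11.1 and 10.8 RPKM. Stmn1 lost its call without Het replicate 2 (limma adjusted p 0.086) or Nf1-KO replicate 1 (0.078), and Cdc25a without Het replicate 1 (0.20) or Nf1-KO replicate 1 (0.23). The number of higher genes in this list was 9 without Het replicate 1 and 8 without Nf1-KO replicate 1.

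Most of the 47 genes under the filter resembled the low mitosis genes, with a median value of 0.07 RPKM. The authors' deposited table called 4 of the 35 it listed, a smaller share than the 31.6% of all its genes, and these 4 are named after their values were seen. Tpx2, which activates Aurka on the spindle, was 0.42 and 0.59 RPKM in Het and 0.16 and 0.23 RPKM in Nf1-KO. Prc1, a bundler of spindle microtubules, was 0.21 and 0.20 against 0.07 and 0.05 RPKM, and Anln, the anillin of the cleavage furrow, 0.25 and 0.28 against 0.04 and 0.09 RPKM. Their log2 fold changes in the authors' deposited table were -1.49, -1.86 and -2.16, with adjusted p of 2.0e-04, 9.0e-05 and 8.7e-05. Cdc25b, a phosphatase that activates cyclin-dependent kinases, was 0.27 and 0.26 against 0.61 and 0.48 RPKM (0.96 in the authors' deposited table, adjusted p 0.037). The limma fit without a filter called 6 of the 47, against 23.9% of all genes. They were Tpx2, Prc1, Anln and Cdc25b, with adjusted p of 0.046, 0.0084, 0.014 and 0.043, and also Pkmyt1 (higher, 0.038) and Cdkn3 (lower, 0.044). In Tpx2, Prc1, Anln and Cdc25b, as in Aurka, the groups did not overlap. Tpx2, Prc1, Anln and Cdc25b were named for calls from these same values, so this adds no support. In scaled values, the groups did not overlap in 76.3% of all tested genes.

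**Figure D5:**
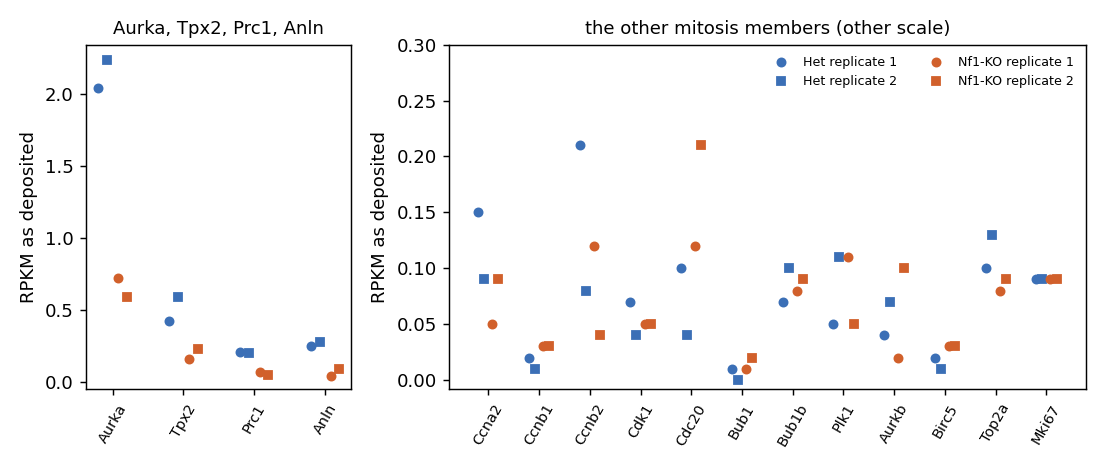
RPKM per library of Aurka with Tpx2, Prc1 and Anln (left) and of the other 12 mitosis members on a smaller scale (right). Blue is Het, orange Nf1-KO, circles replicate 1 and squares replicate 2. The 4 genes on the left are lower in both Nf1-KO libraries, while the genes on the right lie at or below 0.21 RPKM. Tpx2, Prc1 and Anln were chosen after their values were seen, as genes called lower. Cdc25b and Pkmyt1, called higher without a filter, and Cdkn3, called lower, are not shown.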

How the data were processed

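RNA of tibialis anterior muscle was compared between 2 Het and 2 Nf1-KO libraries. The authors deposited 1 RPKM value per gene and library; the unit is unnamed and was read from the values, since the deposited mean normalized count per RPKM rose with transcript length (log-log slope 0.96, 6939 genes). STAR 2.4.2a, DESeq2 and build mm9 are named in the submitters' processing notes. Counting program, strand setting and depth per library are not given in the sources used here. Per the file headers, the authors' deposited table gives a signal (mean count divided by size factors), a log2 fold change, a test score, and p-values before and after adjustment. Its sign matched the libraries' values in 98.4% of 10587 genes.

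Rows named by a number alone (33) were left out, and of rows marked as copies of one name the highest was used. Genes with at least 0.5 RPKM in 2 libraries (10690) were scaled by a trimmed mean of log ratios (30% and 5% trimmed; factors 0.968, 0.967, 1.03 and 1.03). The log2(RPKM + 1) values were tested, two-sided, with limma 3.58.1 under R 4.3.3, letting the variance follow the mean, adjusted by Benjamini-Hochberg over all tested genes. The test was also run on simulated data with normal noise, no scaling step and far fewer changed genes than were called here. It recovered 98% of 100 genes changed by 0.5 (log2) and 100% of 100 changed by 1, with 17 false calls. Such data do not check the scaling or the share of genes called in the real libraries. An exact permutation test of 2 against 2 libraries cannot reach 0.05. Positions and exon overlaps are from GENCODE M21 (GRCm38). Every member is accounted for; of the other list the 6 largest called changes in each direction are named, with Cdkn1a and Nf1. Members and lists were chosen with earlier results of these data known.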

Additional observations from a re-analysis of the deposited data

How the results depend on the processing

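Over 11 alternative fits, 180 of 214 values of the tested cell cycle genes had the same sign and the same call, and 8 turned sign, none of them of a called gene. With no scaling, Ccnd3, Mcm3 and Rrm1 turned to 0.042, 0.019 and 0.037 (log2). Fits with 1 library left out ran from -0.093 to 0.051 for Ccnd3, from -0.23 to 0.083 for Cdk2, from -0.060 to 0.010 for Mcm3 and from -0.11 to 0.015 for Rrm1. The 6 cell cycle genes called higher became 3 with no filter and 3 at an adjusted p under 0.01. Over all genes, the number called higher was 2320 with no filter and 1829 at an adjusted p under 0.01. The 3 lower became 1 with at least 1 RPKM in every library, a filter that leaves Aurka and Ccne2 untested. Leaving out 1 library gave 3 to 5 higher and 3 to 4 lower. In the further list it gave 8 to 13 higher and 6 to 8 lower, and an adjusted p under 0.01 gave 8 and 5. With no scaling, 3760 of all genes were higher and 1883 lower, against 2661 and 2720, and the median of all tested genes moved to 0.07, so that 9 cell cycle genes were higher and 3 lower. Mcm4 was called higher (0.17, adjusted p 0.039) in that setting alone, and Mcm7 (0.33) and Pcna (0.27) were called there, with the filter of 1 RPKM, with the replicate block and without Nf1-KO replicate 1. Beyond these constructions the cause was not tested.

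Libraries of the same replicate number did not deviate together over all tested genes (correlation -0.018). With 2 libraries per group, this cannot show whether the numbers mark a pairing that affects some genes. With the replicate block, 7 cell cycle genes were higher and 3 lower: Mcm7 (0.26, adjusted p 0.014) and Pcna (0.18, 0.016) were called and Cdk4 (0.10, 0.058) was not. The 14 of the 18 genes under the filter that the authors' deposited table lists had mean normalized counts of 7.32 to 46.7, which limits what could be detected in them.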
